A study of Zea mays with 18 samples.

Results

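The apical and basal daughter cells of the first division of the maize zygote, 6 RNA-seq libraries, were set against unfertilised egg cells, 3 libraries, to measure the net change in each transcript from the egg to the first 2 cells of the embryo. The libraries were chosen by their labels alone: 3 apical, 3 basal and 3 egg libraries, 9 of the 18 in the series. Zygotes at 12 h and 24 h after pollination, 3 libraries each, were used to ask what each egg transcript had done on the way. They also shared the filter, the scaling and the estimate of spread with the 9 libraries, so they bear on every call. In a fit of the 9 libraries alone 7398 of 20972 tested genes were called, in place of 9666 of 23806. All groups came from untreated wildtype plants of the inbred line B73 grown in a growth chamber, and cells were dissected by hand and pooled. Egg libraries held 20 cells each, apical libraries 16, basal libraries 13 to 14, zygote libraries 14 to 15 at 12 h and 16 to 17 at 24 h. Whether the pools of a group were drawn from different plants is not given in the sources used here. The p-values reflect only how far these pools differed, a spread that may be technical.

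The egg cell is the female gamete of a flowering plant, and it lies in the embryo sac beside the synergids, the antipodal cells and the central cell. It is loaded with RNA before fertilisation. After fertilisation the zygote polarises and divides asymmetrically into a small apical cell, the founder of most of the embryo proper, and a larger basal cell, which contributes to the suspensor that anchors and feeds the embryo. During this interval stored egg transcripts are degraded, transcription from the zygotic genome starts, and the cell cycle resumes.

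Total gene counts were 11761976 to 18373932 in the egg libraries, 19822868 to 25771168 in the apical and 18199750 to 20313104 in the basal libraries. Ranks of genes correlated at Spearman's rho 0.93 to 0.964 between apical and basal libraries, 0.841 to 0.942 among egg libraries and 0.753 to 0.809 between egg and daughter libraries, as a description across genes. Egg 1 and apical 1 stood apart in markers of other cells. The summed level of 6 embryo sac genes (AS2, EBE-1, EBE-2, es1, es2 and es4) was 4828 CPM (counts scaled to a common library total with TMM factors) in egg 1, 706 in egg 2 and 1616 in egg 3, against 73.2 to 237 CPM in the daughter libraries. Sperm and pollen markers summed to 214 CPM in apical 1 and to 2.47 to 11.6 CPM in the other daughter libraries, and to 32.1 to 64.2 CPM in the eggs. Endosperm markers summed to 171 to 739 CPM in eggs and 139 to 256 CPM in daughters, and 25 of the 55 were at 0 counts in all 9 libraries. Photosynthetic markers summed to at most 8.83 CPM in any of the 9 libraries. The part of such cells in the results was not tested, and results that depended on 1 library are given with and without it. CPM is a share of a library and not per length, so a level is compared between libraries. Where genes are ordered or grouped by CPM, that describes their share of reads and not their number of transcripts. In pooled cells, less RNA per cell and a smaller share of a library cannot be told apart from these values.

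With TMM scaling, about as many transcripts were called above the egg level as below it. Of 23806 genes tested with edgeR's quasi-likelihood test, 9666 (40.6%) differed between daughter and egg cells at a Benjamini-Hochberg adjusted p below 0.05, of which 4823 (20.3%) were higher and 4843 (20.3%) lower in the daughters. The fold change is the mean of apical and basal cells over the egg on the log2 scale. A difference of more than 2-fold was called for 5087 genes (21.4%), 2710 higher and 2377 lower. In 6869 genes (28.9%) the call went with no overlap between the 3 egg and the 6 daughter values. Over all tested genes the median change was 0.08 on the log2 scale. TMM scaling centres libraries on genes taken as unchanged, so the even split and this median are in part set by the scaling. Higher and lower genes numbered 6013 and 4988 with DESeq2, 4308 and 3579 with summed daughter libraries, and 4493 and 5080 without the filter. The balance was different among egg transcripts, the 14367 genes at 1 CPM or more in every egg library: 4092 of them (28.5%) fell, 2215 (15.4%) rose and 8060 were not called.

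**Figure D1:**
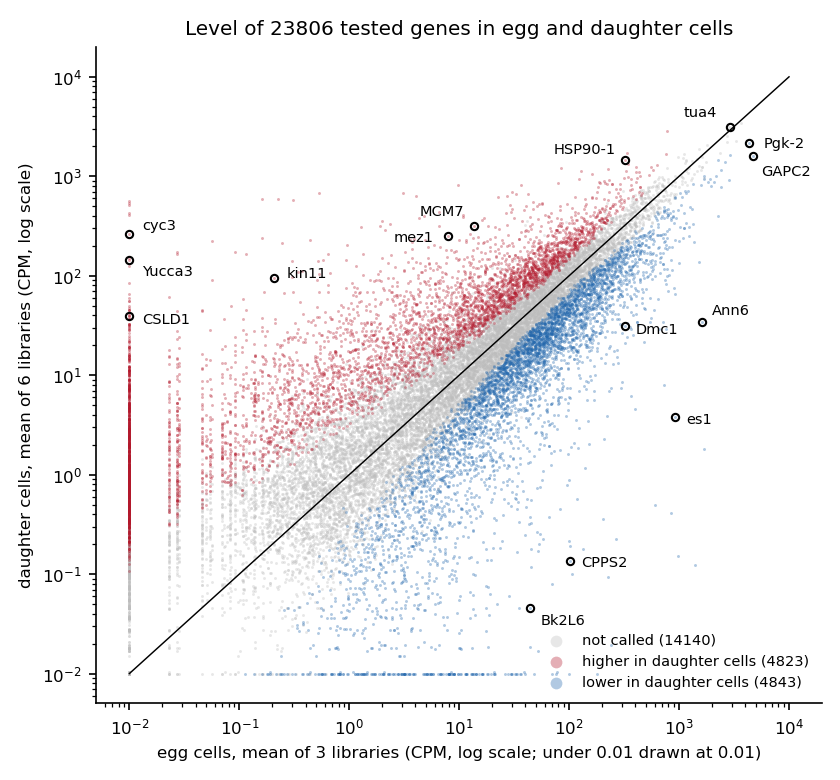
Mean level in the 6 daughter libraries against the mean level in the 3 egg libraries, each in CPM on a log axis, for every tested gene; values under 0.01 CPM are drawn at 0.01, and colours mark the 4823 genes called higher, the 4843 called lower and the 14140 not called, and the diagonal line marks equal levels. The points at the left edge are genes without reads in eggs, among them cyc3 at 263 CPM and Yucca3 at 145 CPM in daughters, and Ann6 and es1 lie far below the line.

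Among the named genes with the largest gains, most had no read in any egg library. The first of these, cyc3 (GRMZM2G073671), encodes a cyclin. It had 0 counts in all 3 eggs, 125, 272 and 319.6 CPM in apical cells and 235, 271 and 355 CPM in basal cells. Against the floor of 3 counts over the egg group it was at least 3383-fold higher (adjusted p = 6.72e-06). Yucca3 (GRMZM2G107761), a flavin monooxygenase of auxin synthesis, was at 0 in eggs, at 91.8, 99.5 and 127 CPM in apical and at 97.4, 149.6 and 303 CPM in basal cells, at least 1862-fold higher (adjusted p = 2.1e-07). RNRS3 (GRMZM2G323679), a small subunit of ribonucleotide reductase, which makes deoxynucleotides, was at 0 in eggs, 69.9, 122 and 129 CPM in apical and 131, 138 and 159 CPM in basal cells, at least 1605-fold higher (adjusted p = 9.7e-08). No egg library held a read of any of the 3 genes, and apical and basal ranges overlapped for cyc3 and Yucca3 but not for RNRS3.

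In all, 229 genes were absent from eggs and present in daughters, defined as under 0.1 CPM in each egg, at least 1 CPM in each daughter library and called higher. The rule rests on the calls, so their number is a description. Of these, 26 had an informative gene name, and these included the auxin genes Yucca3, IAA12, AUX9 and ARF23, the cytokinin receptor kinases HK1b1 and HK1a2, the transcription factors EREB26, EREB93, ERF1, OBF1, bZIP46, NF-YA4, HB85 and AGAMOUS, and the protein kinases cipk31 and SnRK2.1. CSLD1 (GRMZM2G015886), a cellulose synthase-like protein, was at 0 in eggs, 27.4, 31.4 and 40 CPM in apical and 39, 46.7 and 51.7 CPM in basal cells, at least 507-fold higher (adjusted p = 3.65e-07). hscf1 (GRMZM2G139082) went from 0 to 18.7 to 39.6 CPM, at least 365-fold higher (adjusted p = 1.4e-05). Both genes were absent from every egg library and lay in a narrow band over the 6 daughter libraries. IVR1 (GRMZM2G394450), an invertase that splits sucrose, had 1 egg read in all, 8.93, 9.15 and 11.3 CPM in apical and 12.6, 14.6 and 20.3 CPM in basal cells, 487 times the egg level (exact counting interval 87.3 to 19264) (adjusted p = 1.18e-06). HK1b1 (GRMZM2G155767) also had 1 egg read, and reached 12.1, 16.7 and 67.8 CPM in apical and 9.64, 14.5 and 16.6 CPM in basal cells, 879.9 times the egg level (exact counting interval 158 to 34767) (adjusted p = 1.27e-05). The number of such genes rested on egg 1 and egg 3: it was 495 without egg 1 and 437 without egg 3.

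**Figure D2:**
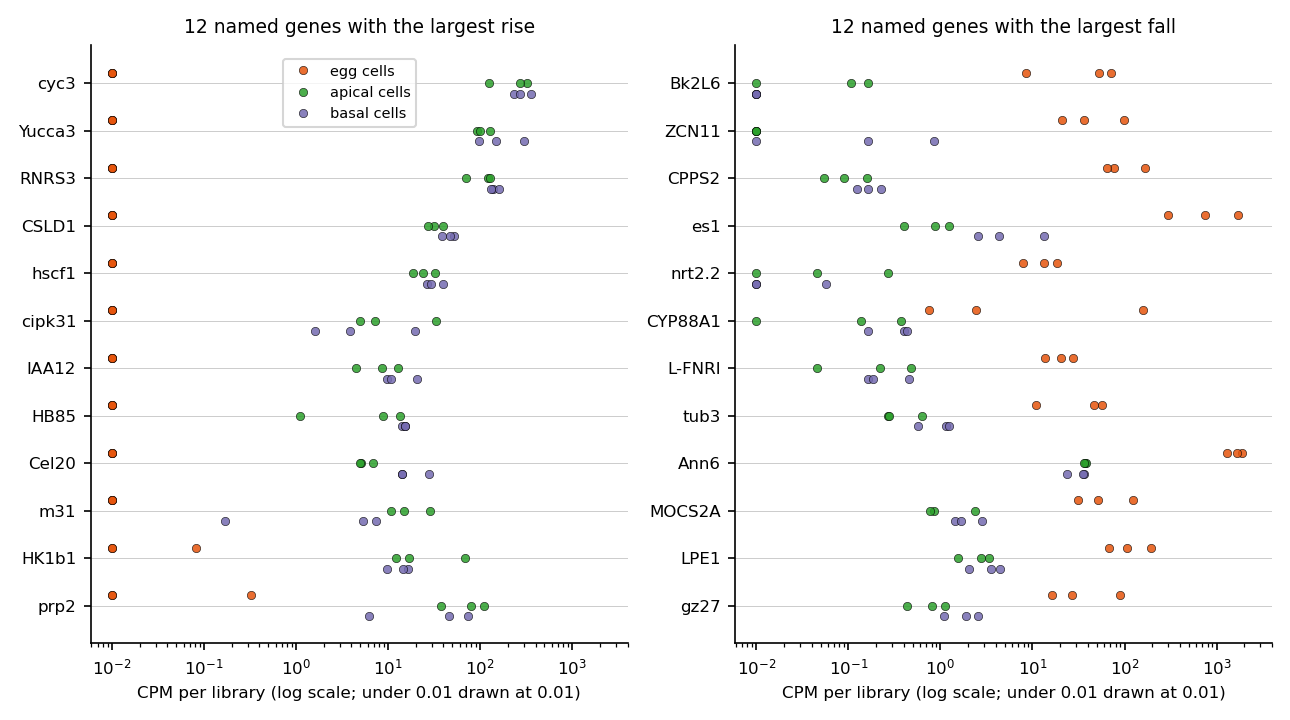
Level of the 12 named genes with the largest rise (left) and the 12 with the largest fall (right) in each egg, apical and basal library, in CPM on a log axis, with values under 0.01 CPM drawn at 0.01; each point is 1 library. For cyc3, Yucca3 and RNRS3 the 3 egg points lie at the lower edge and the 6 daughter points between 69.9 and 355 CPM, while for Ann6 the 3 egg points, 1286 to 1902 CPM, lie above the 6 daughter points, 23.6 to 38.4 CPM.

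Many genes of DNA replication, mitosis and the spindle were higher in the daughter cells than in the egg. Of 15 replication genes tested, 12 rose and 0 fell, with a median log2 fold change of 1.99 beside 0.08 over all tested genes. Among the 12, 11 did so with no overlap. Over all tested genes, 20.3% rose, 20.3% fell and 28.9% were called with no overlap. Counts for this and the other lists cover the members that passed the filter on low counts, where a gene present in 1 group alone can pass only by differing, so they describe the lists and test nothing. Members named as examples here and in the paragraphs that follow were in part chosen after their values were seen. MCM7, a subunit of the replicative helicase, was at 3.35, 16.3 and 21.1 CPM in eggs, 286, 323 and 391 CPM in apical and 200, 236 and 455 CPM in basal cells (log2 fold change 4.53 ± 0.41 SE, adjusted p = 1.59e-05). Its partner MCM6 went from 11.7, 38.5 and 89.95 CPM to 478, 483 and 496 CPM in apical and 247, 272 and 827 CPM in basal cells (3.32 ± 0.49 SE, adjusted p = 0.000533). PCNA, the sliding clamp of the polymerase, was at 28.4, 33.3 and 58.3 CPM in eggs, 163, 277 and 282 CPM in apical and 245, 291 and 436 CPM in basal cells (2.8 ± 0.29 SE, adjusted p = 2.05e-05). None of the 3 overlapped between egg and daughters. Of 9 histone genes, 6 rose and 1 fell (median 2.61). The histone H2B gene his2b5 was at 0.421, 1.47 and 17.9 CPM in eggs, 245, 354 and 377 CPM in apical and 249, 329.9 and 333 CPM in basal cells (5.56 ± 0.67 SE, adjusted p = 0.000234). H4C13 (GRMZM2G149178), a histone H4 gene on a reference entry that 3 gene IDs share, was at 0.168, 6.13 and 8.48 CPM in eggs and at 64.6 to 169.6 CPM in daughters (4.64 ± 0.58 SE, adjusted p = 0.000212). Both were above every egg value in all 6 daughter libraries. The H2A gene his2a1 was called lower, at 0.0818, 2.19 and 15.2 CPM in eggs and 0.271 to 1.98 CPM in daughters, but its groups overlapped and the call was lost under many alternatives; without egg 3 its log2 fold change was -0.76 (adjusted p = 0.65, edgeR) in place of -3.11. Histone genes form near-identical families, so reads shared between copies leave the level of single members uncertain.

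Of 23 cell cycle genes, 12 rose and 2 fell (median 1.39). mad2, of the spindle checkpoint that holds division until chromosomes attach, was at 125, 170.1 and 191 CPM in eggs, 309, 553 and 762 CPM in apical and 536, 621 and 838 CPM in basal cells (1.89 ± 0.28 SE, adjusted p = 0.000261). RBR1, the retinoblastoma-related repressor of S phase entry, went from 43.1, 80.3 and 100.4 CPM to 183 to 250 CPM (1.43 ± 0.26 SE, adjusted p = 0.0012). sgo1, shugoshin, which guards the cohesion of sister chromatids at centromeres, was 1.06 ± 0.25 SE higher on the log2 scale (adjusted p = 0.00493). The cyclin gene cyc3 described above is a member of the same list. One of the 2 that fell, cks, went from 110.1, 147 and 226 CPM to 39.9 to 62.1 CPM (-1.67 ± 0.23 SE, adjusted p = 5.69e-05). The reference table also names its gene as a CMP-KDO synthetase, so its place in the list rests on the symbol.

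Microtubule genes split by member. Of 24 tubulin and kinesin genes tested, of 25 listed, 10 rose and 5 fell (median 0.77). The kinesin kin11 was at 0, 0 and 0.621 CPM in eggs, 84.2, 98.9 and 114 CPM in apical and 83.3, 91.4 and 92 CPM in basal cells (8.66 ± 0.71 SE, adjusted p = 1.22e-06). KIN8 went from 0.345, 2.86 and 4.04 CPM to 122 to 234 CPM (6.05 ± 0.45 SE, adjusted p = 3.47e-06) and KIN13 from 0.337, 1.8 and 3.59 CPM to 77.4 to 155 CPM (5.83 ± 0.48 SE, adjusted p = 7.22e-06). All 3 motor genes were at 4.04 CPM or less in eggs and at 77.4 CPM or more in every daughter library. The beta-tubulin genes tub5 and tub6 moved with them. tub5 was at 3.03, 27.7 and 51.7 CPM in eggs, 488, 539.7 and 727 CPM in apical and 526, 706 and 787 CPM in basal cells (4.51 ± 0.51 SE, adjusted p = 0.000104), and tub6 went from 24.5, 27.9 and 34 CPM to 314 to 619 CPM (4.15 ± 0.33 SE, adjusted p = 4.39e-06). Other tubulin genes went the other way. tub3 was at 10.9, 46.1 and 57.6 CPM in eggs, 0.267, 0.274 and 0.633 CPM in apical and 0.569, 1.15 and 1.24 CPM in basal cells (-5.92 ± 0.5 SE, adjusted p = 1.26e-06), and the alpha-tubulin tua5 went from 241, 476 and 649 CPM to 52.1 to 95.4 CPM (-2.64 ± 0.29 SE, adjusted p = 7.63e-06). Egg and daughter values of these tubulin genes did not overlap in either direction.

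Of 77 chromatin and small RNA genes tested, of 78 listed, 32 rose and 10 fell (median 0.64), and families were split. The Polycomb genes, homologs of the histone methyltransferase Enhancer of zeste, moved in opposite directions. mez1 was at 0.421, 4.21 and 19.1 CPM in eggs, 262, 264 and 301 CPM in apical and 215, 236 and 242 CPM in basal cells (5 ± 0.59 SE, adjusted p = 0.000161). mez2 was at 122, 164 and 168 CPM in eggs, 42.4, 44.1 and 50.3 CPM in apical and 35.6, 37.8 and 38.4 CPM in basal cells (-1.88 ± 0.18 SE, adjusted p = 2.7e-06). The lowest daughter value of mez1 was above its highest egg value, and the highest daughter value of mez2 below its lowest egg value. The DNA methyltransferase met5 went from 1.23, 19.7 and 24 CPM to 216, 296 and 304 CPM in apical and 201, 217 and 246 CPM in basal cells (4.03 ± 0.53 SE, adjusted p = 0.000288). HMG5, of the high mobility group of DNA-binding proteins, went from 3.6, 3.93 and 6.14 CPM to 75 to 146 CPM (4.58 ± 0.26 SE, adjusted p = 2.09e-07). The small RNA genes also split. dcl1, the Dicer enzyme that makes microRNAs, was at 38.4, 53.3 and 63.5 CPM in eggs, 133, 208 and 240.2 CPM in apical and 121, 128 and 153 CPM in basal cells (1.64 ± 0.22 SE, adjusted p = 0.000131). mop1, the RNA-dependent RNA polymerase of the maize RNA-directed DNA methylation pathway, was at 16.8, 45.2 and 76.1 CPM in eggs, 2.46, 2.63 and 2.8 CPM in apical and 5.64, 6.74 and 7.63 CPM in basal cells (-3.46 ± 0.37 SE, adjusted p = 6.83e-06). rmr7, a subunit of the plant-specific RNA polymerases of the same pathway, was lower by a log2 fold change of -1 ± 0.28 SE (adjusted p = 0.00977).

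Among transcription factor families, 13 of 27 AP2 and EREB genes tested, of 37 listed, rose and 0 fell (median 2.03). Of those tested, 48.1% were called, beside 40.6% of all tested genes. EREB171 was at 0, 4.33 and 5.17 CPM in eggs, 76.1, 105 and 140.3 CPM in apical and 103, 115 and 127 CPM in basal cells (5.12 ± 0.59 SE, adjusted p = 0.000129). EREB93 was at 0 in eggs, 1.86, 5.24 and 7.41 CPM in apical and 7.17, 10.03 and 13.4 CPM in basal cells, at least 96.7-fold higher (adjusted p = 3.25e-05). Both were above the eggs in every daughter library. Homeobox and other patterning genes were mixed, with 13 of the 59 tested, of 88 listed, up and 9 down (37.3% called beside 40.6% of all tested genes; median 0.56), and 9 up and 10 down without egg 2. The WUSCHEL-related homeobox gene HB85 (GRMZM2G031882, also wox9B) was at 0 in eggs, 1.1, 8.72 and 13.3 CPM in apical and 14.2, 15.1 and 15.2 CPM in basal cells, at least 145-fold higher (adjusted p = 4.38e-05). Its relative wox9A was at 0 in eggs, 0.548, 1.66 and 2.08 CPM in apical and 2.68, 2.78 and 2.96 CPM in basal cells, at least 27.2-fold higher (adjusted p = 6.17e-05). Relatives of these genes mark the basal lineage of the Arabidopsis embryo. Here the basal values of both lay above the apical ones. Neither the difference for HB85 nor any other difference between apical and basal cells passed edgeR's test. In the opposite direction, the homeobox gene ocl4 fell from 14, 17.1 and 21.4 CPM to 0.569 to 5.14 CPM (-3.25 ± 0.47 SE, adjusted p = 8.22e-05), and HB39 from 0.981, 3.11 and 5.52 CPM to a single read in 6 daughter libraries, an egg level 371 times that of the daughters (exact counting interval 65.4 to 14769) (adjusted p = 5.14e-05).

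Of 37 MADS genes tested, of 42 listed, 14 rose and 6 fell (median 1.01). m1 was at 0, 0 and 1.93 CPM in eggs, 27, 134 and 607 CPM in apical and 21.6, 67.5 and 137 CPM in basal cells (7.65 ± 1.11 SE, adjusted p = 0.000562). Its relative m27 went from 1.88, 1.94 and 10.9 CPM to 12.4 to 481 CPM (5.39 ± 0.91 SE). Daughter libraries varied widely in both genes, but all lay above the eggs. M14 fell from 19.7, 19.9 and 31.4 CPM to 0.407 to 5.69 CPM (-3.09 ± 0.55 SE, adjusted p = 0.000418). Of 28 bZIP genes tested, of 36 listed, 8 rose and 3 fell (39.3% called beside 40.6% of all tested genes, median 0.71). The gene bZIP46 was at 0 in eggs and 4.17 to 11.6 CPM in daughters, at least 100.4-fold higher (adjusted p = 5.2e-06), and bZIP113 fell from 4.91, 8.62 and 15.4 CPM to 0 to 0.321 CPM (-6.21 ± 1 SE, adjusted p = 0.000273). Of 36 MYB genes tested, of 64 listed, 8 rose and 2 fell (27.8% called beside 40.6% of all tested genes; median 0.57; 5 rose in a fit of the 9 libraries alone). Of 22 bHLH genes tested, of 46 listed, 5 rose and 3 fell (36.4% called beside 40.6% of all tested genes; median 1.98). The bHLH median was 0.19 without basal 2, and in 7 of 17 alternatives no more genes rose than fell. bHLH129 fell from 52.8, 75.6 and 113 CPM to 13.6 to 20.1 CPM (-2.24 ± 0.25 SE, adjusted p = 7.16e-06), and the MYB-related gene MYBR101 from 72.1, 78.5 and 96.8 CPM to 18.3 to 26.4 CPM (-1.93 ± 0.21 SE, adjusted p = 7.13e-06).

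Members of the auxin pathway rose at the levels of synthesis, transport and response. Auxin is made by YUCCA enzymes, carried by AUX and PIN proteins, and read through Aux/IAA repressors and ARF transcription factors. Of 41 such genes tested, of 61 listed, 17 rose and 7 fell (58.5% called beside 40.6% of all tested genes, median 1.98). Without egg 1, 3 fell. Of the 41 tested, 11 had 0 counts in eggs, and 9 of these were among the 17 that rose. At the level of transport, AUX1, an uptake carrier, was at 0 in eggs, 6.15, 10.1 and 20.1 CPM in apical and 0.124, 1.04 and 16.1 CPM in basal cells. Its mean over the daughter libraries was at least 115-fold higher (adjusted p = 0.00628), but the lowest basal value was near the egg floor of 0.0777 CPM. PINY, an efflux carrier, was at 34.8, 61.2 and 68.5 CPM in eggs, 130.1, 189.8 and 225 CPM in apical and 135, 135 and 159 CPM in basal cells (1.55 ± 0.25 SE, adjusted p = 0.000433), so it was present before fertilisation while AUX1 was not detected. At the level of response, IAA12 (GRMZM2G128421) was at 0 in eggs, 4.44, 8.67 and 13 CPM in apical and 9.81, 10.9 and 20.5 CPM in basal cells, at least 144-fold higher (adjusted p = 0.000606). ARF11, present in eggs, was 2.09 ± 0.25 SE higher on the log2 scale (adjusted p = 4.99e-05). AUX27 fell, from 2.76, 10.7 and 20.4 CPM to 0, 0.219 and 3.32 CPM in apical and 0, 0 and 0.219 CPM in basal cells (-5.18 ± 1.19 SE, adjusted p = 0.00256), with 1 apical value above the lowest egg.

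Cytokinin is perceived by histidine kinase receptors, which pass a phosphate through HP proteins to response regulators. Of 23 such genes tested, of 30 listed, 9 rose and 2 fell (47.8% called beside 40.6% of all tested genes, median 1.36). The receptors rose from near 0. HK1 was at 0, 0 and 0.483 CPM in eggs, 18, 60.1 and 81.5 CPM in apical and 12.1, 17.7 and 35 CPM in basal cells (7.55 ± 0.94 SE, adjusted p = 4.99e-05). HK1a2 was at least 101-fold higher. The phosphotransfer gene HP1 was at 18.3, 32.3 and 67.2 CPM in eggs, 99.6, 143 and 146 CPM in apical and 328, 392 and 412 CPM in basal cells (2.49 ± 0.34 SE, adjusted p = 0.000215). Every receptor and phosphotransfer value given lay above the eggs. The response regulator RR4 was lower, at 7.66, 40.6 and 44.5 CPM in eggs, 3.07, 8.95 and 8.99 CPM in apical and 8.34, 8.44 and 11 CPM in basal cells (-1.94 ± 0.5 SE, adjusted p = 0.00559), with overlap.

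Of 71 jasmonate, WRKY and defence genes tested, of 101 listed, 31 rose and 5 fell (median 1.91). WRKY1 was at 0, 1.66 and 1.88 CPM in eggs, 36.6, 46 and 58.8 CPM in apical and 34.4, 38.8 and 41.7 CPM in basal cells (5.15 ± 0.57 SE, adjusted p = 7.47e-05). PepR1, a receptor of defence peptides, went from 0.0818, 1.68 and 4.07 CPM to 33 to 123 CPM (5.47 ± 0.61 SE, adjusted p = 8.55e-05), and the wound-induced gene wip1 from 0, 0 and 0.9 CPM to 3.36 to 260.4 CPM (8.35 ± 1.77 SE, adjusted p = 0.00476). The daughter values of wip1 spanned the widest range of the 3, and all 3 genes were above the eggs throughout. Of the 5 that fell, aoc1 and opr7 encode enzymes of jasmonate synthesis: aoc1 fell from 17.3, 18.5 and 26.3 CPM to 0.329 to 3.94 CPM (-3.36 ± 0.52 SE, adjusted p = 0.000159) and opr7 by a log2 fold change of -2.65 ± 0.47 SE. TIFY30, of the family that includes the JAZ repressors of jasmonate response, fell from 261, 458 and 820.4 CPM to 72.3 to 122 CPM (-2.41 ± 0.27 SE, adjusted p = 9.86e-06), while TIFY27 of the same family was higher (4.04 ± 0.67 SE). The number of risen genes of this list fell to 16 in a fit of the 9 libraries alone, and 8 genes fell without egg 3.

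Cell wall genes changed in both directions, also within families. Of 42 tested, of 58 listed, 15 rose and 7 fell (median 0.56; 12 fell without apical 1, the library with the highest pollen marker sum). CesA-2, a cellulose synthase, was at 16.6, 19.9 and 32.3 CPM in eggs, 119, 165 and 246 CPM in apical and 153, 162 and 174 CPM in basal cells (2.89 ± 0.27 SE, adjusted p = 1.01e-05). The beta-expansin expB2, a wall-loosening protein, went from 1.18, 1.66 and 3.76 CPM to 19.1 to 39.8 CPM (3.73 ± 0.35 SE, adjusted p = 1.25e-05). The cellulase gene Cel20 was at 0 in eggs, 4.93, 5.14 and 6.92 CPM in apical and 14, 14.2 and 28.1 CPM in basal cells, at least 157-fold higher (adjusted p = 2.78e-05). The cellulase gene Cel24A was lost, from 3.11, 5.38 and 6.3 CPM to 0 reads in 6 daughter libraries, at least 183-fold lower (adjusted p = 6.29e-05). The cellulose synthase CesA12 was among those that fell (-3.49 ± 0.64 SE). None of the 4 genes with values for every library overlapped between egg and daughters.

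**Figure D3:**
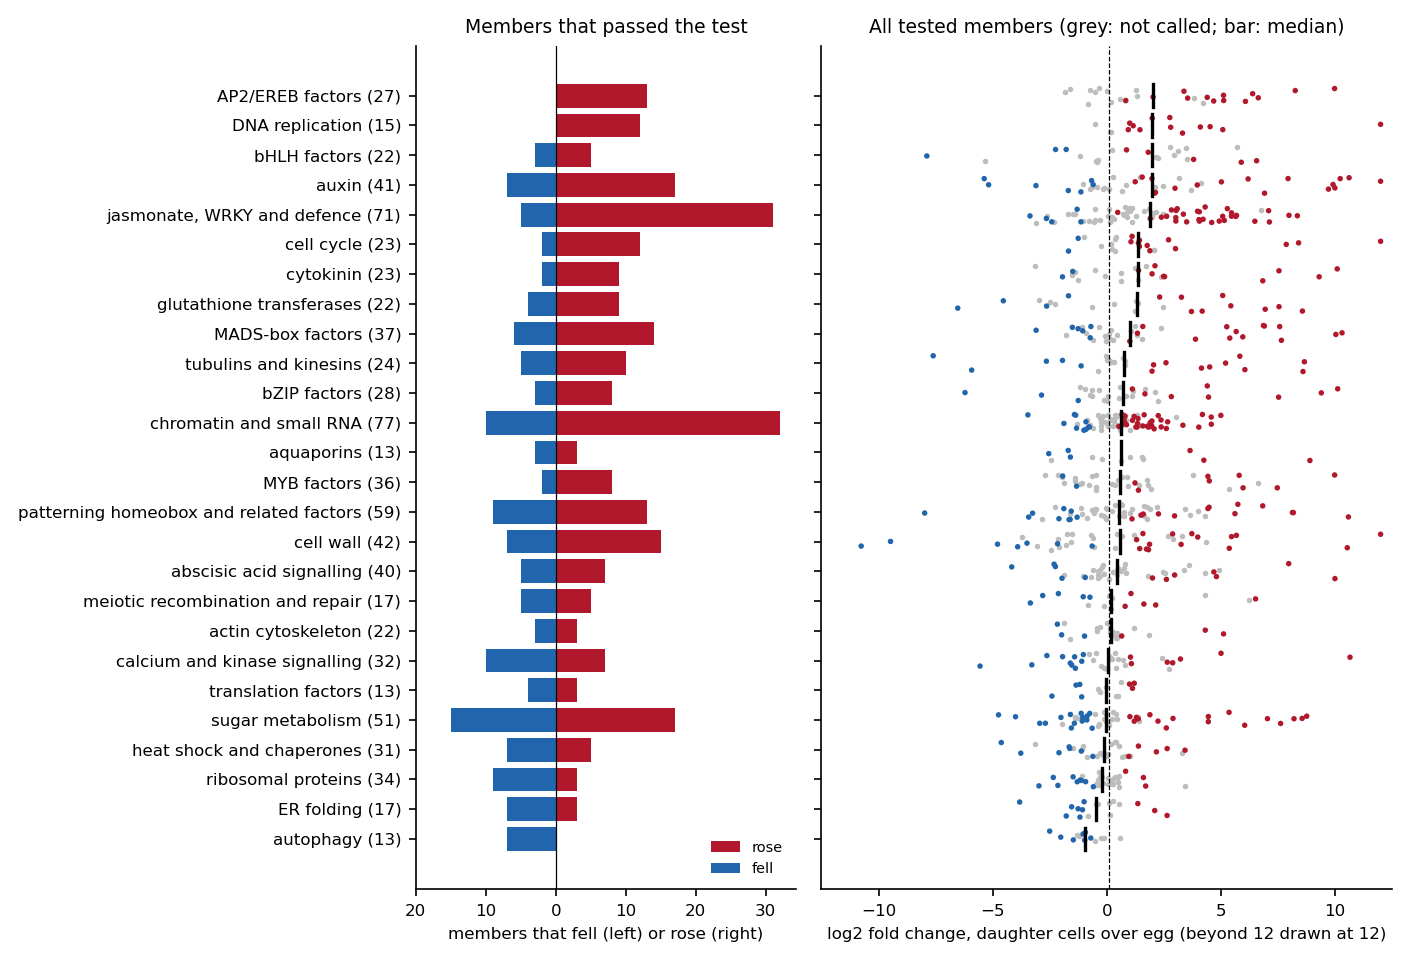
For each gene list other than cell type markers with 10 or more tested members, the number tested in brackets, the left panel gives how many rose (red, right) and fell (blue, left), and the right panel gives the log2 fold change of daughter over egg cells with 1 point per gene, grey where not called, list medians as black bars, the median of all tested genes (0.08) as a dashed line and values beyond 12 drawn at 12. The replication list, with 12 risen and 0 fallen members, has a median of 1.99, and the autophagy list, with 0 risen and 7 fallen, one of -0.97.

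The named transcripts that fell furthest came from varied pathways. Bk2L6 (GRMZM2G167520), a COBRA-like protein, a family that acts at the cell wall, was at 8.41, 53.1 and 71.7 CPM in eggs, 0, 0.107 and 0.164 CPM in apical and 0 in all basal libraries, 5 reads in all (adjusted p = 2.35e-05). CPPS2 (GRMZM2G044481), an ent-copalyl diphosphate synthase of the route to gibberellins and diterpenes, was at 64, 77.8 and 166 CPM in eggs and 0.0548 to 0.228 CPM in daughters (-9.52 ± 0.53 SE, adjusted p = 2.63e-08). ZCN11 is of the family of FT and TFL1 flowering regulators. It went from 21.2, 36 and 98.1 CPM to 0 in apical and 0, 0.164 and 0.854 CPM in basal cells, 18 reads in all (adjusted p = 5.86e-06). All 3 were depleted in each of the 6 daughter libraries. The annexin Ann6 (GRMZM2G061950), a calcium-dependent membrane-binding protein, was abundant in eggs at 1286, 1656 and 1902 CPM, and was at 36.3, 36.7 and 38.4 CPM in apical and 23.6, 35.4 and 36.7 CPM in basal cells (-5.55 ± 0.24 SE, adjusted p = 3.77e-09). The nitrate transporter nrt2.2, a name that 2 gene IDs share, fell from 7.91, 13.3 and 18.5 CPM to at most 0.267 CPM (-7.95 ± 0.96 SE, adjusted p = 5.17e-06). L-FNRI, a ferredoxin-NADP reductase whose name 2 gene IDs also share, fell from 13.7, 20.2 and 27.6 CPM to 0.0452 to 0.481 CPM (-6.28 ± 0.85 SE, adjusted p = 7.56e-05). MOCS2A, of molybdenum cofactor synthesis, was at 30.9, 51.7 and 124 CPM in eggs and fell by 5.4 ± 0.46 SE on the log2 scale (adjusted p = 1.44e-06). Every egg value of each of these genes lay above every daughter value. CYP88A1, a gibberellin synthesis enzyme, was at 0.757, 2.41 and 158 CPM in eggs and 0 to 0.433 CPM in daughters (-7.78 ± 1.5 SE, adjusted p = 0.00145), but the high value was egg 1, and without that library the estimate was -2.70 (adjusted p = 0.101).

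Embryo sac genes fell alongside these. es1 (GRMZM2G012012), a defensin-like peptide gene, was at 298, 754 and 1723 CPM in eggs, 0.407, 0.877 and 1.23 CPM in apical and 2.53, 4.33 and 13.2 CPM in basal cells (-8.61 ± 0.57 SE, adjusted p = 3.41e-07). es4 was at 208, 469 and 1480.1 CPM in eggs, 9.7, 10.2 and 11.2 CPM in apical and 49.8, 53.2 and 69.5 CPM in basal cells (-4.88 ± 0.44 SE, adjusted p = 2.04e-06). es2 was at 162, 367 and 1249 CPM in eggs, 14.9, 17.9 and 21.6 CPM in apical and 58.5, 70.2 and 89.9 CPM in basal cells (-4.03 ± 0.46 SE, adjusted p = 1.34e-05). In each of the 3 the lowest egg value was above the highest daughter value, and the apical values lay below the basal ones. The 3 others of the 6 embryo sac genes were not called. These genes are also known from synergids, and the summed level differed between egg libraries from 706 to 4828 CPM, so the share of their fall that came from the egg cell itself was not tested.

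Loss without a remaining trace was rare under the rule used: 21 genes were at 1 CPM or more in every egg, under 0.1 CPM in each daughter library and called lower. The 3 with names were Cel24A above, GNAT15, an acetyltransferase gene, which went from 2.19, 2.48 and 15.7 CPM to 0 reads (at least 251-fold lower, adjusted p = 6.59e-05), and the kinesin gene KIN5, from 1.01, 1.23 and 1.79 CPM to 0 reads (at least 49.7-fold lower, adjusted p = 0.00114). The number was 260 without egg 1, 100 at a ceiling of 0.5 CPM and 9 when no read was allowed. A few of the most abundant transcripts also moved. The glycolytic gene GAPC2 (GRMZM2G180625) was at 2671, 4417 and 7067 CPM in eggs, 1337, 1541 and 1679.9 CPM in apical and 1295, 1818 and 2015 CPM in basal cells (-1.55 ± 0.25 SE, adjusted p = 0.000213). Pgk-2, a phosphoglycerate kinase, fell from 2726, 4849 and 5351 CPM to 1679.7 to 2473 CPM (-1.01 ± 0.22 SE, adjusted p = 0.00174), and the calreticulin gene CRH from 1899, 2572 and 4048 CPM to 486 to 1731 CPM (-1.62 ± 0.33 SE, adjusted p = 0.00109). Egg values stayed above all daughter values in the 3 genes. The 3 highest transcripts that rose had no informative name, at daughter means of 2878, 1723 and 1662 CPM. Only the middle one, GRMZM2G405804, passed the test for a change beyond 2-fold (glmTreat, adjusted p = 0.000972). The others were at 0.0543 and 0.303 in that test. GRMZM2G405804 went from 208, 386 and 409.7 CPM to 1229, 2037 and 2132 CPM in apical and 1115, 1655 and 2173 CPM in basal cells (2.36 ± 0.29 SE, adjusted p = 6.98e-05).

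Sugar metabolism genes moved in both directions: of 51 tested, of 54 listed, 17 rose and 15 fell (median -0.04, a sign that turned under 8 alternatives). The sucrose synthase gene ss2 (also sus1) was at 5.22, 30.2 and 73.4 CPM in eggs, 587, 604 and 769 CPM in apical and 766, 899 and 1227 CPM in basal cells (4.45 ± 0.51 SE, adjusted p = 0.000113). The invertase ivr2 was at least 38.8-fold higher, and the alcohol dehydrogenase adh2 4.45 ± 0.83 SE higher on the log2 scale. AGP2, a subunit of ADP-glucose pyrophosphorylase, which makes the starch precursor, was at 504, 921 and 1172 CPM in eggs, 86.4, 96.4 and 125 CPM in apical and 114, 115 and 145 CPM in basal cells (-2.94 ± 0.29 SE, adjusted p = 3.07e-06). A different gene ID, named Agp2 (GRMZM2G106213), was among the transcripts held within 2-fold of the egg at every stage, a class described below. Glycolytic genes that fell, besides GAPC2 and Pgk-2, included gpc4, from 1542, 2102 and 3519 CPM to 927 to 1523 CPM (-1.05 ± 0.25 SE, adjusted p = 0.00298), and the enolases eno1 (-0.75 ± 0.22 SE, adjusted p = 0.0141) and eno2 (-0.64 ± 0.25 SE, adjusted p = 0.0478). The ss2 values were above the eggs in all daughters, and AGP2 and gpc4 values below.

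Of 34 ribosomal protein genes tested, of 36 listed, 3 rose and 9 fell (35.3% called beside 40.6% of all tested genes; median -0.23), and of 13 translation factor genes 3 rose and 4 fell (53.8% called; median -0.04). The ribosomal counts rested on egg 2: without it 8 rose and 8 fell (median 0.11), and 6 translation factor genes rose and 3 fell. The stalk protein genes arpp2a-3 and arpp2b went opposite ways. The first, arpp2a-3, was at 26.6, 68.5 and 98.9 CPM in eggs, 149, 154 and 241 CPM in apical and 192, 206 and 245 CPM in basal cells (1.61 ± 0.32 SE, adjusted p = 0.00207). The second, arpp2b, was at 279, 332 and 777 CPM in eggs, 43.4, 51.3 and 67.9 CPM in apical and 62.9, 64.3 and 65.6 CPM in basal cells (-2.97 ± 0.29 SE, adjusted p = 2.48e-06). Initiation factor genes did so too. The gene eif3 went from 344, 426 and 473 CPM to 732 to 1055 CPM (1.21 ± 0.18 SE, adjusted p = 0.000217) and eif7 from 114, 134 and 242 CPM to 24 to 38.7 CPM (-2.4 ± 0.24 SE, adjusted p = 3.9e-06). None of the 4 overlapped between egg and daughters.

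Protein quality control genes were mixed, and autophagy genes fell. Of 13 autophagy genes 7 fell and 0 rose (53.8% called beside 40.6% of all tested genes, median -0.97). All 7 were without overlap, beside 28.9% of all tested genes called without overlap. Atg8d, a ubiquitin-like protein that coats the autophagosome membrane, was at 387, 859 and 1511 CPM in eggs, 212, 225 and 267 CPM in apical and 202, 229 and 229.7 CPM in basal cells (-2.02 ± 0.29 SE, adjusted p = 8.2e-05), and its relatives Atg8e (-2.5 ± 0.39 SE) and Atg8c (-1.46 ± 0.23 SE) were lower too. Of 31 heat shock genes tested, of 34 listed, 5 rose and 7 fell (38.7% called beside 40.6% of all tested genes, median -0.12). The counts were 9 and 8 without egg 1 and 2 and 10 without egg 2. The chaperone HSP90-1 was at 108, 146 and 708 CPM in eggs, 1251, 1697 and 1847 CPM in apical and 1035, 1381 and 1523 CPM in basal cells (2.18 ± 0.43 SE, adjusted p = 0.00277). The small heat shock gene hsp18c was at 58.6, 87.1 and 137 CPM in eggs and 2.22 to 5.81 CPM in daughters (-4.62 ± 0.33 SE, adjusted p = 2.88e-07). Both sets of values were apart. Of 17 ER folding genes 3 rose and 7 fell (median -0.46). Of the protein disulfide isomerases, pdi5 went from 8, 10.7 and 12.3 CPM to 33.5 to 48.3 CPM (2.1 ± 0.22 SE, adjusted p = 1.89e-05) and pdi7 from 289, 339.5 and 428 CPM to 83.3 to 142 CPM (-1.54 ± 0.2 SE, adjusted p = 3.04e-05).

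Most genes known for meiosis had reads in eggs, 3 of 17 having none, and 5 rose and 5 fell (median 0.2, and -0.01 without egg 1). Dmc1, the meiotic recombinase, was at 189.6, 256 and 516 CPM in eggs, 16.6, 31.7 and 40.6 CPM in apical and 28.8, 34.6 and 37.1 CPM in basal cells (-3.35 ± 0.32 SE, adjusted p = 2.21e-06). Spo11-2, of the family that makes meiotic breaks, fell as well (-2.81 ± 0.39 SE, adjusted p = 5.65e-05). ZYP1, a protein of the synaptonemal complex, was at 77.7, 84.8 and 89.7 CPM in eggs, 285, 371 and 503 CPM in apical and 301, 342 and 434 CPM in basal cells (2.15 ± 0.21 SE, adjusted p = 1.01e-05). Egg and daughter values of Dmc1 and of ZYP1 did not overlap.

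The remaining question was which egg transcripts ended where they began. A missed test does not show that a transcript stayed, so a transcript was counted as held at the egg level when the whole 95% interval of its log2 fold change lay between -1 and 1, that is, within 2-fold. Of the 14367 egg transcripts 2709 (18.9%) met this, of which 59 were nevertheless called as small differences. The share depended on precision: it was 0.331% among transcripts with a mean under 5 CPM, 7.71% from 5 to 20 CPM, 23.3% from 20 to 100 CPM and 33.7% above 100 CPM, where the median standard error was 0.26 against 0.63 in the lowest class. Even above 100 CPM, 741 of 2945 transcripts rose and 729 fell. Holding the daughter mean did not mean that each daughter cell was tested alone: 97 of the 2709 were called against the egg in apical or basal cells, 6 in both and 0 in opposite directions.

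Of the 2709 held transcripts, 504 met a rule for keeping the level at every stage and 869 a rule for leaving it and coming back. The others met neither rule, so their course was not classed. In 504 egg transcripts (3.51% of egg transcripts and 2.12% of the genes tested) the interval lay within 2-fold of the egg at 12 h, at 24 h and in the daughter cells. The zygote and daughter comparisons share the egg libraries, so their values are set side by side and not tested as a pattern. The ribosomal protein gene rps4 was at 506, 639 and 719.9 CPM in eggs, 480.4, 529 and 574 CPM at 12 h, 645, 691 and 735 CPM at 24 h, 719, 824 and 926 CPM in apical and 627, 794 and 805 CPM in basal cells, with log2 fold changes over the egg of -0.24, 0.15 and 0.33 (interval -0.04 to 0.7 in daughters). PK, a symbol that the reference table gives without a description, was at 457, 486 and 541 CPM in eggs, 492, 525 and 550.3 CPM at 12 h, 625, 642 and 664 CPM at 24 h, 456, 482 and 487 CPM in apical and 413, 519.8 and 549 CPM in basal cells (-0.03, interval -0.36 to 0.3). Values of eggs and daughters overlapped in both genes, and in rps4 the daughters reached above the eggs. Top1, DNA topoisomerase I, was at 197, 216 and 249 CPM in eggs and 169 to 235 CPM in daughters (-0.14 ± 0.16 SE). Others in the class with a name were the splicing factor SCL30 (GRMZM2G065066), the RNA helicase RH2, the disulfide isomerase pdi6 and the beta-tubulin TUBB2. Of the 50 named members 5, SCL30, rps4, Top1 and RH2 among them, kept the class under all 15 alternatives that were run for it. Of the 504 genes, 132 were shared with the 633 that met the rule with library size only, and 276, 271 and 285 with those that met it without egg 1, egg 2 and egg 3.

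Another class left the egg level and returned. In 650 egg transcripts the level was more than 2-fold lower and called at 12 h or 24 h, called higher again in daughters than in that zygote stage, and within 2-fold of the egg in daughters. Of these, 582 were low at 12 h and 390 at 24 h, 322 at both, with median log2 fold changes over the egg of -1.35 at 12 h, -1.13 at 24 h and -0.03 in daughters. Their median egg level was 137 CPM, against 31.3 CPM for all egg transcripts. Few low transcripts meet the interval rule, so this comparison describes the class only. The median was 77.6 CPM in the class held at every stage and 24.3 CPM in the class that rose and returned, described below. The alpha-tubulin gene tua4 was at 1265, 3043 and 4347 CPM in eggs, 829, 904 and 947 CPM at 12 h, 1687, 1769.8 and 1963 CPM at 24 h, 2644, 2965 and 3657 CPM in apical and 2640.1, 3394 and 3459.9 CPM in basal cells. Its log2 fold change over the egg was -1.69 at 12 h (adjusted p = 0.0018) and 0.12 in daughters (interval -0.49 to 0.72). At 12 h each value lay under the lowest egg, and the daughter values lay inside the egg range. A glyceraldehyde phosphate dehydrogenase gene, GAPC (GRMZM2G071630), was at 1030.3, 1206 and 2618 CPM in eggs, 419, 499 and 527 CPM at 12 h, 520, 579 and 798 CPM at 24 h, 1391, 1527 and 2125 CPM in apical and 1256, 1411 and 1766 CPM in basal cells, with log2 fold changes of -1.75, -1.36 and -0.04. It thus ended at the egg level, while its relative GAPC2, described above, ended below it. SnrK1 (GRMZM2G107867), a kinase of the energy-sensing family, was at 115, 256 and 285 CPM in eggs, 50.2, 67.1 and 86.1 CPM at 12 h, 85.3, 108 and 144 CPM at 24 h, 187, 197 and 259.6 CPM in apical and 186, 204 and 216 CPM in basal cells (-1.69, -0.96 and -0.07). Cullin-1, the scaffold of SCF ubiquitin ligases, was at 291, 341 and 412 CPM in eggs, 119, 120.3 and 124 CPM at 12 h, 164, 189 and 207 CPM at 24 h and 326 to 484 CPM in daughters (-1.52 at 12 h, 0.25 in daughters). All 6 daughter values lay inside the egg range for SnrK1, and those of Cullin-1 reached above it. Other named members were the chaperone HSP90-2, the aldolase ald1, the malate dehydrogenase CYTMDH, the ribosomal stalk gene RP-P0, the S-adenosylmethionine synthase sam2 and the histone deacetylase HD2b.

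Membership of this class moved with the egg libraries and the scaling. Egg 1 was the lowest of the 3 eggs in 517 of the 650, and the median log2 difference of an egg library from the daughters was -0.63 for egg 1, 0.28 for egg 2 and 0.12 for egg 3. The class held 781 genes without egg 1 (437 of them shared with the 650), 377 without egg 2 (220 shared) and 392 without egg 3. With library size alone in place of TMM scaling, whose factors were 1.208 to 1.319 at 12 h, 1.157 to 1.196 at 24 h and 0.75 to 1.041 in eggs, it held 281 genes, of which 194 were shared. It was smaller than the class held at every stage with library size only (281 against 633), without egg 2 (377 against 578), without egg 3 (392 against 409) and with summed daughter libraries (304 against 452). Of the 72 named members, SnrK1 alone kept its place under all 15 alternatives. tua4 and GAPC kept it under 14, not without egg 2, where their daughter log2 fold changes were 0.60 and 0.55. HSP90-2 and HD2b were likewise 0.51 and 0.90 above the egg without egg 2, and -0.51 and 0.00 without egg 1. They kept the class under 11 and 8 alternatives, ald1 under 12, RP-P0 under 4, and CYTMDH and sam2 under 2.

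The opposite course, up in the zygote and back to the egg level, was seen in 219 egg transcripts, 153 at 12 h and 165 at 24 h, with median log2 fold changes of 1.17, 1.17 and 0.07. An entry named Rhodopsin in the reference (GRMZM2G066197), a name given by similarity, was at 18.9, 23.2 and 29.9 CPM in eggs, 89.96, 135 and 239 CPM at 12 h, 80.3, 81.7 and 113 CPM at 24 h, 18, 20.4 and 26.1 CPM in apical and 14.3, 21.9 and 34.4 CPM in basal cells. Its log2 fold change was 2.69 at 12 h (adjusted p = 0.000312), 1.93 at 24 h (adjusted p = 0.00211) and -0.09 in daughters (interval -0.78 to 0.6). CNR08, of the cell number regulator family, was at 33.5, 56.6 and 65.8 CPM in eggs, 177, 209.7 and 217 CPM at 12 h, 127, 136 and 173 CPM at 24 h and 35.8 to 78.8 CPM in daughters (1.95, 1.48 and 0.11). Both were above all eggs in each zygote library, and their daughter values overlapped the eggs. pDCT1, a plastid dicarboxylate transporter, was at 26.9, 35.3 and 42.1 CPM in eggs, 54.5 to 60.2 CPM at 12 h, 59.4 to 86.4 CPM at 24 h and 21.3 to 39.2 CPM in daughters (0.73, 1 and -0.18). These 3 of the 10 named members kept the class under all 15 alternatives. Egg 1 was the highest egg in 163 of the 219 (74.4%), and with library size alone the class held 427 genes.

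**Figure D4:**
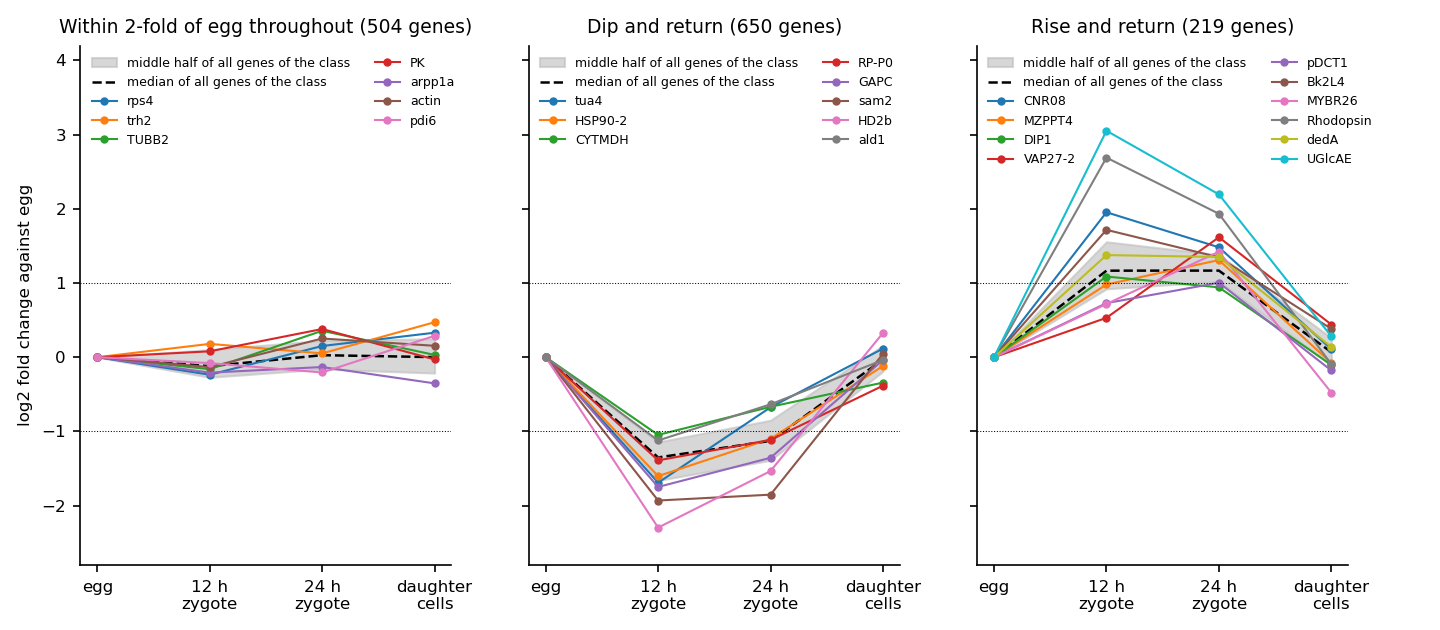
Log2 fold change over the egg at 12 h, at 24 h and in daughter cells for egg transcripts that stayed within 2-fold at every stage (504), that dipped and returned (650) and that rose and returned (219); shaded bands run from the lower to the upper quartile of each class, dashed lines are medians, solid lines are named genes that are alone on their reference entry, and dotted lines mark -1 and 1. Medians are -1.35, -1.13 and -0.03 in the second class and 1.17, 1.17 and 0.07 in the third, and the classes were defined by these courses.

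Apical and basal cells were also set against the egg separately. Apical cells differed from eggs in 8370 genes (35.2%) and basal cells in 7657 (32.2%), and both comparisons use the same 3 egg libraries. Between apical and basal cells 0 genes passed edgeR's test and 1267 had an unadjusted p below 0.05, whereas DESeq2 called 76. Ann6 was -5.44 in apical and -5.66 in basal cells on the log2 scale over the egg, and GAPC2 -1.63 and -1.46. The estimates for es1 were -10.11 (adjusted p = 4.17e-06) in apical and -7.11 (adjusted p = 2.85e-05) in basal cells, and their difference of -3 did not pass edgeR's test (adjusted p = 0.7). For HP1 they were 1.72 (adjusted p = 0.00522) and 3.26 (adjusted p = 9.03e-05), a difference of -1.54 (adjusted p = 0.761). The mean of both daughters can hide a split: UGlcAE, a UDP-glucuronate epimerase gene of pectin precursor synthesis, counted as returned to the egg level with a daughter mean of 0.28, but was at 7.32, 11.2 and 17.5 CPM in eggs, 5.04, 6.87 and 10.4 CPM in apical and 21.4, 32.2 and 32.6 CPM in basal cells. Its estimates were -0.69 in apical and 1.26 in basal cells (adjusted p = 0.0163 for basal), and their difference did not pass edgeR's test (adjusted p = 0.55).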

How the data were processed

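RNA from pooled, hand-dissected cells was selected by its polyA tail, amplified with the SMARTer Ultra Low kit and made into libraries with the Nextera kit, per the labels' protocols. The authors deposited raw counts per gene ID, 1 column per library. The submitters' processing notes name STAR 2.5.2a, featureCounts, cutadapt 1.13, Trimmomatic 0.32, FastQC, DESeq2 and the build B73 RefGen_v3. How strand and reads with several matches were counted is not given in the sources used here. Near-identical copies and antisense neighbours are therefore uncertain. No row lacked a gene ID.

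Counts of 15 libraries (egg, zygote at 12 h and 24 h, apical, basal; sperm left out) were fitted together with edgeR 4.0.16 in R 4.3.3 (filterByExpr, TMM, robust quasi-likelihood), with the mean of apical and basal minus egg as contrast and Benjamini-Hochberg adjustment over 23806 genes at 0.05. Changes beyond 2-fold used glmTreat. Held at the egg level means a 95% interval between -1 and 1. The samples were grouped by label. Bounds divide the mean of the higher group by a floor of 3 counts over the other group (0.0777 CPM in eggs, 0.027 CPM in daughters). Single libraries can therefore lie below a bound. Floors and intervals cover counting error only, since reads carried no molecular identifiers. Depth was 11761976 to 25771168 counts per library. The script was tested on simulated data. Gene names came from a RefSeq table of Zm-B73-REFERENCE-NAM-5.0: of 39475 IDs, 18387 matched 1 reference gene and 2544 had an informative name, 521 matched several and stayed unnamed, and 171 named IDs share an entry. No coordinates or sequences were used.

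Named genes were the 12 largest called changes in each direction without overlap and with 10 CPM or more in the higher group, for each list and direction the called member of lowest adjusted p, the 8 highest in each class, and the 3 highest in each direction among genes called with an estimated fold of 2 or more, which need not pass glmTreat; other list members were named after their values were seen, and a gene withheld from this text is not reported here. The comparison, the classes and the lists were chosen with earlier results of these data known. Alternatives were other scalings, no filter, a replicate block, the 9 libraries alone, DESeq2 1.42.0, summed groups, other class limits and leaving out each library.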

Additional observations from a re-analysis of the deposited data

Results flagged for a closer look

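Of 92 named genes with 6 daughter values, 17 had 1 daughter library that stood apart from the other 5. The gap to the nearest value lay above Dixon's 95% critical value for 6 samples. That limit flags about 1 in 20 groups by chance only where values are normally distributed. It was applied here to CPM values, and some flagged genes had few reads in daughters. A gene with reads in a single daughter library is always flagged. The 17 flags are therefore a description and were not weighed against chance. The apical and basal values are pooled here, so a library can stand apart within either cell type.

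High values among the genes that rose were Yucca3 at 303 CPM in basal 3 (91.8 to 149.6 CPM in the other libraries), HK1b1 at 67.8 CPM in apical 3 (9.64 to 16.7 CPM), PP2C18 at 59.9 CPM in apical 2 (14 to 30.4 CPM) and gst23 at 8.44 CPM in basal 2 (0.407 to 3.4 CPM). Low values were CDPK2 at 35.1 CPM in apical 1 (51.1 to 60.5 CPM) and pdi5 at 33.5 CPM in apical 2 (44 to 48.3 CPM). In each of these the flagged library still lay above every egg.

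Among the genes that fell, es1 was at 13.2 CPM in basal 1 (0.407 to 4.33 CPM in the others), his2a1 at 1.98 CPM in basal 3 (0.271 to 0.695 CPM), AUX27 at 3.32 CPM in apical 2 (0 to 0.219 CPM) and mgs2 at 3.71 CPM in apical 1 (0 to 0.267 CPM), the library with the highest pollen marker sum. ZCN11 was at 0.854 CPM in basal 1 (0 to 0.164 CPM), nrt2.2 at 0.267 CPM in apical 2 (0 to 0.0569 CPM), gst35 at 0.219 CPM in apical 3 (0 to 0.0548 CPM) and HB39 at 0.0452 CPM in apical 1, where the other 5 were at 0. Ann6 was at 23.6 CPM in basal 1 (35.4 to 38.4 CPM) and RR4 at 3.07 CPM in apical 3 (8.34 to 11 CPM). The synthase gene sam2, of the class that dipped and returned, was at 2378 CPM in apical 3 (1159 to 1445 CPM).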

How the results depend on the processing

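The number of called genes was 9667 with DESeq2's size factors in edgeR, 9724 with upper quartiles, 9426 with library size only, 9573 without the filter, 7398 with the 9 libraries alone, 11001 with DESeq2, 7887 with summed groups and 8530 to 10716 without 1 library, each within 1.5 times of 9666. Library size only moved the median log2 fold change of all genes from 0.08 to 0.13, and leaving out egg 1 to 0.27. Leaving out 1 library gave 4169 to 5701 higher and 4361 to 5015 lower genes, 4250 to 6129 beyond 2-fold, 2074 to 2713 held within 2-fold, 409 to 578 at every stage, 546 to 1102 returned, 5979 to 9702 called in apical and 5456 to 9300 in basal cells, 25 to 260 lost and 238 to 495 gained transcripts. A margin of 1.5-fold left 312 held, 1 at every stage and 61 returned transcripts. The gained transcripts were 142 at a detection level of 2 CPM and 419 at a ceiling of 0.5 CPM in eggs; the lost transcripts were 100 at that ceiling and 9 when no read was allowed. Of 1614 values of named genes under the alternatives, 0 called values turned direction, 23 lost and 5 gained the call. A further 17 values of uncalled genes moved by at least their SE. The genes his2a1 and uce2 lost the call most often. Most named genes were picked for large or clear changes in the main fit, so these numbers do not describe all called genes. Same-numbered egg and daughter libraries did not deviate together (correlations of -0.133 to 0.151 with apical, -0.125 to -0.00917 with basal libraries); same-numbered apical and basal libraries did in 2 of 3 pairs (0.341, 0.382 and -0.0259), so the 6 daughter libraries may not be fully independent. Not every pair passed 0.1, so the numbers were not taken as pairs; with a replicate block 8734 genes were called. For the 9 libraries alone only the class held within 2-fold in daughters was counted, and with DESeq2 no class was. Few low transcripts could enter the held class: 107 of 1510 egg transcripts under 5 CPM had an interval narrower than the span from -1 to 1. The part of depth in this was not tested.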

Other observations

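Stress-related and transport genes not described in the comparisons were also measured, with examples chosen after their values were seen. Of 22 glutathione transferase genes tested, of 32 listed, 9 rose and 4 fell (median log2 fold change 1.33). gst23 was at 0 in eggs and 0.407 to 8.44 CPM in daughters, at least 40.8-fold higher (adjusted p = 0.000213, edgeR), and gst35 was lower with overlap (-6.53 ± 1.75 SE, adjusted p = 0.00427, edgeR). Of 40 abscisic acid signalling genes tested, of 45 listed, 7 rose and 5 fell (30% called beside 40.6% of all tested genes, median 0.47). However, 14 rose without egg 1 and 12 with DESeq2. PP2C18, a phosphatase of the family that holds the pathway off, went from 0.0841, 0.759 and 2.21 CPM to 14 to 59.9 CPM (4.69 ± 0.63 SE, adjusted p = 0.000263, edgeR), and the kinase SnRK2.11 from 173, 203 and 304 CPM to 40.3 to 73.1 CPM (-1.96 ± 0.23 SE, adjusted p = 1.25e-05, edgeR).

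Of 32 calcium and kinase signalling genes tested, of 36 listed, 7 rose and 10 fell (53.1% called beside 40.6% of all tested genes; median 0.07, which turned in 3 of 17 alternatives). The calcium-dependent protein kinase CDPK2 went from 1.47, 7.66 and 7.66 CPM to 35.1 to 60.5 CPM (3.23 ± 0.39 SE, adjusted p = 9.7e-05, edgeR), while the annexin Ann7 fell from 103, 350.3 and 752 CPM to 25.2 to 52.2 CPM (-3.28 ± 0.42 SE, adjusted p = 3.05e-05, edgeR). Of 22 actin cytoskeleton genes 3 rose and 3 fell (27.3% called beside 40.6% of all tested genes, median 0.2, and -0.13 without egg 1). ABP1 (also adf1), an actin-depolymerising factor, went from 0.589, 0.621 and 0.9 CPM to 4.67 to 26.7 CPM (4.32 ± 0.42 SE, adjusted p = 7.31e-06, edgeR), and the actin gene ACT-1 from 428, 983 and 1575 CPM to 197 to 242 CPM (-2.16 ± 0.29 SE, adjusted p = 4.13e-05, edgeR). Of 13 aquaporin genes tested, of 29 listed, 3 rose and 3 fell (46.2% called beside 40.6% of all tested genes). Their median was 0.63, which turned in 8 of 17 alternatives, to -0.78 without egg 2, where 17 were tested. The gene pip2b was at least 42.8-fold higher (adjusted p = 0.00038, edgeR), and sbip1a fell from 23, 23.8 and 29.5 CPM to 2.52 to 6.03 CPM (-2.54 ± 0.31 SE, adjusted p = 1.91e-05, edgeR). Of 5 ubiquitin and proteasome genes 1 rose and 2 fell (median -0.56). The gene that rose, uce2 (0.73 ± 0.26 SE, adjusted p = 0.0422, edgeR), lost its call without egg 1, where it was 0.53 higher (adjusted p = 0.134), and without each of 7 other single libraries. SUMO1b was down from 899.9, 929.8 and 1262 CPM to 391 to 634 CPM (-1 ± 0.18 SE, adjusted p = 0.000557, edgeR).

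Of the marker lists of other cells, 12 of 13 sperm and pollen markers were tested and 1 fell (median -1.98); without apical 1, 9 fell (median -5.89). Of 55 endosperm markers 9 were tested, of which 2 rose and 4 fell (median -2.34, which turned in 9 of 17 alternatives, to 3.4 without egg 1, where 16 were tested). FL1 fell from 32.9, 42.1 and 62.9 CPM to 2.25 to 5.2 CPM (-3.5 ± 0.33 SE, adjusted p = 2.31e-06, edgeR), and O10 rose from 2.41, 3.7 and 24.5 CPM to 59.3 to 105 CPM (2.88 ± 0.52 SE, adjusted p = 0.00169, edgeR). Of 17 photosynthetic markers 4 were tested and 1 fell (median -2.3). The median was 0 without egg 1, where 5 were tested, and 0.63 in a fit of the 9 libraries alone, where 2 were tested. With DESeq2 and with summed daughter libraries 0 fell. The 6 embryo sac genes had a median of -3, and of -1.17 without egg 1. The part of such cells in any of these changes was not tested.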
